A study of Rattus norvegicus with 7 samples.

Results

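All 7 arrays of the series enter the comparison described here: the 4 arrays of cadmium-treated testis, taken as 1 group whatever the time after the dose, against the 3 arrays of untreated testis. The animals were adult male Sprague-Dawley rats, an outbred stock. The cadmium group had received 1 intraperitoneal injection of cadmium chloride at 3 mg/kg and its testes were taken 8 h (2 arrays) or 20 h (2 arrays) later; the untreated testes are the 0 h control, and the labels name no vehicle injection for them. The treatment field of the untreated arrays repeats the cadmium dose, but their titles and the series' design text call them untreated, and they were used as such. The labels call the arrays biological replicates, read here as 1 animal each, so the spread between arrays includes the differences between outbred animals. Germ cell transcripts marked the tissue as adult testis on every array: Prm1, which encodes protamine 1, had a signal between 16767.1 and 28755.9, and Tnp1, which encodes transition protein 1, between 12998.8 and 21056.3.

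Cadmium is a toxic metal that damages the blood vessels of the testis and the barrier that Sertoli cells form between the blood and the germ cells. Cells commonly answer it through Mtf1, a zinc-sensing transcription factor that binds metal response elements before the metallothionein genes, and through oxidative stress and heat shock pathways. The question asked of the pooled arrays was which transcripts moved one way on all 4 cadmium arrays, whether the animal had been killed at 8 h or at 20 h.

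Metal response elements share a short core, written here as TGCACNC or TGCGCNC and searched on both strands in the 250 bases before each gene's RefSeq start (rat build GRCr8). Of 27457 promoters, 21.2% hold at least 1 such core. The promoters below are shown because the first is that of a textbook target of Mtf1 and the others belong to genes that lay outside the untreated range on all 4 cadmium arrays; cores are in capitals. They are read 5′ to 3′ on the gene's strand, from chr19:10832976-10833225 (minus strand, Mt1), chr2:122131306-122131555 (plus strand, Bbs12), chr3:133563494-133563743 (minus strand, Cops2) and chr1:94690812-94691061 (plus strand, Alkbh6).
Mt1: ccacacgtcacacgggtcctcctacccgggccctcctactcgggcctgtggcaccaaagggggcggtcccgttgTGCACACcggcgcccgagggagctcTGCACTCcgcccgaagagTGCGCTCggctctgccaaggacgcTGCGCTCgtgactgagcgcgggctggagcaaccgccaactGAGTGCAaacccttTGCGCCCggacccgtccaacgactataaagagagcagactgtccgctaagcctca
Bbs12: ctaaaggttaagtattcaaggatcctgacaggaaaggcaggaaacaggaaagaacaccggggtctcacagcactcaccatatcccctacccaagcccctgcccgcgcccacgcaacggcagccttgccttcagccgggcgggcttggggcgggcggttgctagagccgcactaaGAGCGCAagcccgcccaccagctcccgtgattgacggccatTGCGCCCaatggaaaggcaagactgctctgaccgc
Cops2: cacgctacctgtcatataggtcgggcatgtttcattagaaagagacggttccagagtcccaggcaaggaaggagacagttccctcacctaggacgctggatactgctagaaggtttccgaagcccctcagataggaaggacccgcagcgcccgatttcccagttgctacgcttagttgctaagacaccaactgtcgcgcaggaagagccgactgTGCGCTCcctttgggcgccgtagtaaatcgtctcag
Alkbh6: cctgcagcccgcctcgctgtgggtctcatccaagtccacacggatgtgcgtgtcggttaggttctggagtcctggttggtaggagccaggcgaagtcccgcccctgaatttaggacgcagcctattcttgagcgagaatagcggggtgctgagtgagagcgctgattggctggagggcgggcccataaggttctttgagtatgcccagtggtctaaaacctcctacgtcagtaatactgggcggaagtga
The Mt1 promoter holds 6 cores, that of Bbs12 2, that of Cops2 1 and that of Alkbh6 0. Of the 12 genes named below for the largest gaps above the untreated range, 9 had a promoter in the RefSeq table and 4 of those held a core. Of the 12 named for the largest gaps below it, 9 had a promoter and 1 held a core, that of Maob. The Maob promoter held 2 cores. Among genes above the range, the promoters of Zcchc9, which had the widest gap, Cd163, Zfp457, Ilrun and Rpap1 held 0. The promoters printed after that of Mt1 are therefore examples and do not stand for their groups. The antioxidant response core TGACNNNGC, present in 10.2% of all promoters, was found in 1 and 2 of these promoters. The hypoxia core ACGTG, present in 16.9%, was found in 2 and 1, and the heat shock motif GAANNTTC, present in 7.02%, in 0 and 1. A match is a description of letters and not a site of binding.

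The values are signal intensities scaled to one trimmed mean, which lay between 249.1 and 249.8 on the 7 arrays, while the median signal was 57 to 71.9 on untreated and 52.8 to 63.1 on cadmium arrays. The arrays had been hybridized on 3 days: untreated replicate 1 with 20 h replicate 1, untreated replicate 2 alone, and untreated replicate 3 with the other 3 cadmium arrays. The log2 ratio of 3′ to 5′ actin signal, which follows RNA integrity and labelling, was 0.733 to 1.191 on untreated and 0.917 to 1.422 on cadmium arrays. On day 1 the cadmium array (0.917) was below the untreated one (0.985), and on day 3 the cadmium arrays (1.363 to 1.422) were above it (1.191). Untreated replicate 3 stood apart most. Of 12937 probe sets with a signal of at least 100, 497 were at least 2-fold lower there than the mean of the other untreated arrays, against 33 and 58 on those. On the cadmium arrays 102 to 156 probe sets were 2-fold lower, and 20 to 121 were 2-fold higher, than the untreated mean.

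A single probe set passed the test of the pooled comparison. It carries no gene name here (probe set 1392767_at) and rose from signals of 26.4, 16.2 and 35.7 on the untreated arrays to 136 and 173.7 at 8 h and 185.2 and 144.4 at 20 h. Every cadmium array lay far above every untreated one, and both times overlapped with each other. The means were 26.1 ± 9.75 (SD, n = 3) and 159.8 ± 23.4 (SD, n = 4), a log2 fold change of 2.11 ± 0.22 (SE; limma, adjusted p = 0.0409). Fold changes throughout are on the log2(signal + 15) scale, which understates the change of dim genes. The call was 1 of 20857 probe sets tested, or 0.00479%, and the second-lowest adjusted p was 0.802. It was lost with the hybridization day as a block, where the log2 fold change was 1.93 ± 0.23 (SE; limma, adjusted p = 0.0833). The untreated arrays alone would not have brought this probe set past the filter on low values. The call was lost without that filter (limma, adjusted p = 0.123) and with a filter at the 60th percentile on at least 3 arrays (0.0564). It was also lost without any 1 of untreated replicate 1 (limma, adjusted p = 0.0840), untreated replicate 2 (0.195), 8 h replicate 1 (0.142), 8 h replicate 2 (0.426), 20 h replicate 1 (0.0818) or 20 h replicate 2 (0.288), and held without untreated replicate 3 (0.0363). Its log2 fold change stayed between 1.46 and 2.63 in the 18 alternatives tried.

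No named gene passed the adjusted threshold. With the day as a block, 0 of 20857 probe sets passed in limma (0%), and 1633 had an unadjusted p under 0.05, 789 higher and 844 lower. Without the block, 332 probe sets (1.59%) were higher and 840 (4.03%) lower at an unadjusted p under 0.05. The test between the times, 20 h against 8 h, also called 0 probe sets in limma, with 401 at an unadjusted p under 0.05. For 4 against 3 arrays there are 35 ways to divide the arrays, so an exact permutation test of a single gene cannot go below a 2-sided p of 0.0571. Genes named from here on for lying outside the untreated range were chosen by their values, and those values are a description.

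Genes were therefore described by whether all 4 cadmium arrays fell outside the range of the 3 untreated arrays. Among the 20857 probe sets kept, 379 (1.82%) lay above that range on all 4 arrays and 1023 (4.9%) below it. The excess of lower probe sets moved with the scaling and with signal. Of all those outside the range, 27.0% were higher as deposited, 50.4% after quantile normalization (571 above, 563 below) and 44.2% after scaling to one 75th percentile (570 above, 720 below). A mean signal of at least 100 in the higher of the groups, a rule that a gene can meet through that group alone, divided the probe sets. Among those under it, 66 of 7920 (0.833%) were above and 525 (6.63%) below. Among the brighter ones, 313 of 12937 (2.42%) were above and 498 (3.85%) below. All 3 scalings shared 188 probe sets above and 381 below. Over all probe sets kept, the median fold change was -0.07 as deposited and 0.00 after quantile normalization, on the log2 scale. Single arrays moved the counts as well. Without untreated replicate 3 there were 1706 above and 3922 below, without 20 h replicate 1 1140 and 2248, without untreated replicate 1 958 and 1647, without untreated replicate 2 729 and 1633, and without 8 h replicate 1 626 above.

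**Figure D1:**
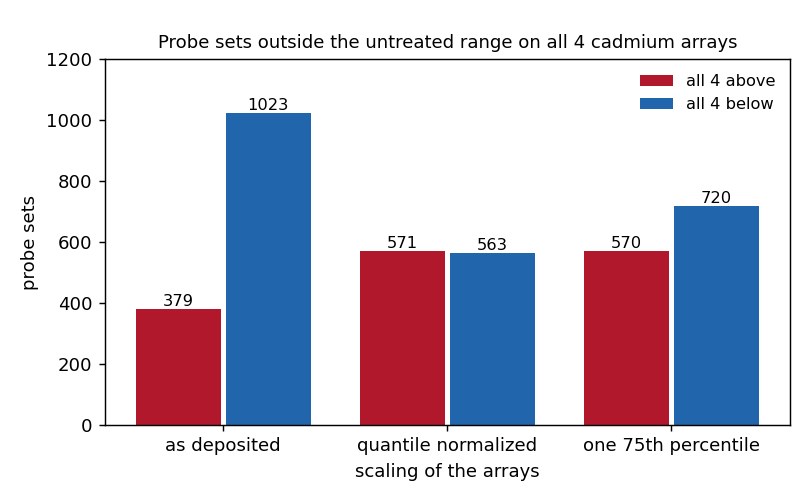
Bars give the number of probe sets (vertical axis) for which all 4 cadmium arrays lay above (red) or below (blue) the range of the 3 untreated arrays, under 3 scalings of the arrays (horizontal axis). Lower probe sets outnumbered higher ones as deposited, 1023 to 379, and were about as many as the higher ones after quantile normalization, 563 to 571.

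Shared changes were small in size. Among probe sets with that mean signal of at least 100, the median log2 fold change was 0.25 for those above the range and -0.37 for those below it, and 20 above and 67 below reached 1.5-fold on average. On all 4 arrays taken singly, 7 probe sets were at least 1.5-fold above the untreated mean and 21 at least 1.5-fold below. At 2-fold, 2 were higher on all 4, the unnamed probe set and Prss40, and 1 was lower, Rasgrf1. Prss40 encodes a serine protease and was picked out after its values were seen. Its signals were 1068.5, 407.1 and 400.5 on the untreated arrays, 1362.2 and 1669.4 at 8 h, and 1170.9 and 1781.4 at 20 h, and the log2 fold change was 1.37 ± 0.30 (SE). Untreated replicate 1 was close to the lowest cadmium array, while the other untreated arrays were far below.

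With the day as a block, to which untreated replicate 2 adds nothing because it is alone on its day, the sign of a probe set outside the range cannot turn, since the rule already sets every cadmium array apart from every untreated one. The block can change only the size. Compared directly with the untreated array of their own day, 2541 probe sets (12.2%) were higher on all 4 cadmium arrays and 3691 (17.7%) lower; 3 of these 4 differences share untreated replicate 3. At the edge of the rule, Rpl5 (log2 fold change 0.28) was just above the untreated range and Ext1 (0.38) just failed to be, while Selenof (-0.25) was just below it and Tle1 (-0.57) just failed. On each side the gene that just failed the rule had the larger fold change.

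**Figure D2:**
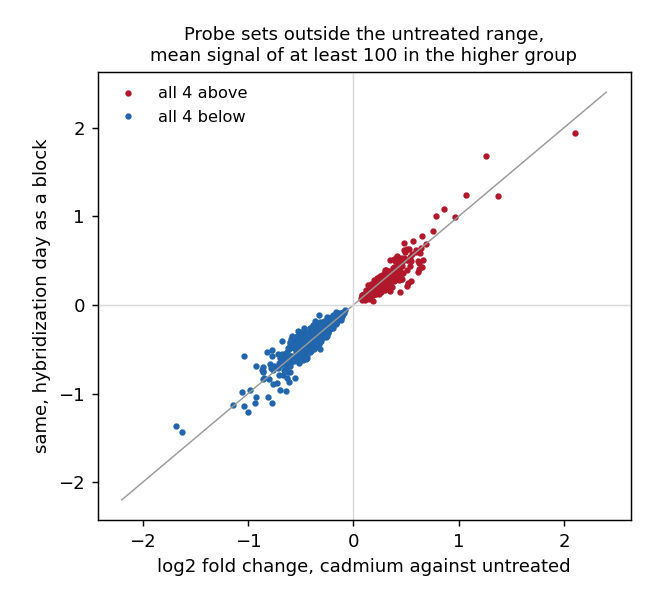
Each point is a probe set with a mean signal of at least 100 in the higher group that lay outside the untreated range on all 4 cadmium arrays (313 above in red, 498 below in blue). The horizontal axis is the log2 fold change of cadmium against untreated, the vertical axis the same with hybridization day as a block, and the grey line marks equality; the rule fixes the sign on both axes, and the points show how far the size moves with the block.

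The genes with the widest gap above the untreated range came from several functions. Zcchc9, a zinc-finger protein of the CCHC type, had signals of 200.3, 231.1 and 131.7 on the untreated arrays, 328.9 and 463.2 at 8 h, and 346.2 and 490.7 at 20 h. The second replicate was the higher one at both times, and the lowest cadmium array was still well above the highest untreated one. The log2 fold change was 1.07 ± 0.21 (SE) and 1.24 with the day as a block. Bbs12, a chaperonin-like protein needed to assemble the ciliary complex that is defective in Bardet-Biedl syndrome, was nearly constant in untreated testis at 206.5, 203.1 and 207.3. On the cadmium arrays it had 306.1 and 290.3 at 8 h and 341.3 and 300.7 at 20 h, and the log2 fold change was 0.55 ± 0.12 (SE). Its promoter, printed above, holds 2 metal response cores. Cops2, a subunit of the COP9 signalosome, had 107.3, 109.2 and 96.6 on the untreated arrays and 184.1, 163, 154.8 and 157.6 on the cadmium arrays (8 h first), a log2 fold change of 0.59 ± 0.15 (SE). Its other probe sets had fold changes of 0.25 and 0.37 in the same direction.

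Nectin2, Cd163, Ccl11 and Ilrun were also in this group. Nectin2, an immunoglobulin-like adhesion molecule of cell junctions, had 58.4, 82.5 and 66.8 on the untreated arrays against 139.4, 129.8, 118 and 120.1, a log2 fold change of 0.76 ± 0.18 (SE). The 4 cadmium values were close to each other, but the other Nectin2 probe set had a fold change of only 0.06. Cd163, the haemoglobin scavenger receptor of macrophages, had 52.3, 37.4 and 42.2 against 106.8, 84.3, 137.3 and 77.2, with the first replicate the higher at each time (log2 fold change 0.96 ± 0.23, SE). Ccl11, the eosinophil chemokine eotaxin, had 113.5, 158.3 and 159.6 against 291.8, 210.2, 214.5 and 210.7 (log2 fold change 0.64 ± 0.18, SE). For Ccl11 the first 8 h array was high and the other cadmium arrays were almost equal. Ilrun, a regulator of inflammatory and lipid signalling, had 284.4, 307.5 and 331.5 against 493, 401.3, 409.6 and 525.5 (0.54 ± 0.14, SE).

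The remaining genes of this group were Zfp457, a zinc-finger protein (log2 fold change 0.52), Idi1, the isopentenyl diphosphate isomerase of cholesterol synthesis (0.37), Rpap1, a partner of RNA polymerase II (0.33), Wee1, the kinase that restrains Cdk1 (0.68), and Fancd2os, a gene named for its place opposite Fancd2 (0.28). Idi1 had 889.2, 859.3 and 907.9 on the untreated arrays and 1185.7, 1091, 1133 and 1194.5 on the cadmium arrays, tight values in both groups. Its second probe set went the other way, with a fold change of -0.22, and so did the second one of Wee1, with -0.14. Fancd2os was the brightest of the group, between 3036.9 and 3121.5 on untreated and between 3644.3 and 3813.6 on cadmium arrays, and was the only one of the 12 genes that did not stay outside the untreated range after quantile normalization. All 12 stayed outside after scaling to one 75th percentile, and each had a limma adjusted p of 0.802.

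Below the untreated range the gaps were wider. Alkbh6, a member of the AlkB family of dioxygenases, had 350.7, 277.4 and 322.4 on the untreated arrays, 156.3 and 180.9 at 8 h, and 135.8 and 167.6 at 20 h. The fold change was -0.92 ± 0.15 (SE) on the log2 scale and -1.04 with the day as a block, and the groups were far apart on both days. Zfp11, a zinc-finger protein, had 177.6, 162.4 and 154.1 against 73.9, 89, 87.1 and 90.4, a log2 fold change of -0.85 ± 0.16 (SE). Rasgrf1, a guanine nucleotide exchange factor for Ras, had 106.7, 127.4 and 67.2 against 4.2, 38, 17.8 and 38.1. It was lowest in the replicate 1 animals of both times, and the log2 fold change was -1.62 ± 0.39 (SE).

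Several genes of this group belong to lipid, amine and structural functions. Maob, monoamine oxidase B of the outer mitochondrial membrane, had 163.7, 207.3 and 150.2 against 103.3, 110.8, 87 and 100.9, a log2 fold change of -0.70 ± 0.17 (SE). B4galt6, an enzyme that makes lactosylceramide, had 167.7, 186.9 and 149.9 against 107.2, 115.2, 68.4 and 99.4 (-0.72 ± 0.19, SE). Iffo1, an intermediate filament family member, had 160.5, 179.5 and 159.8 against 100.6, 100.3, 83.2 and 105.5 (-0.69 ± 0.16, SE), and its other probe sets had fold changes of -0.23 and -0.18. For B4galt6 and Iffo1 the first 20 h array was the lowest. Synj2bp, an outer mitochondrial membrane protein, had a fold change of -0.72, but its other probe sets had 0.06 and 0.08. Schip1, Plekhm3 and Fkbp10, the last a prolyl isomerase that assists collagen folding, had -0.78, -0.66 and -0.60.

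Mcm10 and Sesn1 complete the group. Mcm10, needed to start DNA replication, had 103.3, 109.1 and 91.3 against 63.9, 46.4, 62.8 and 61.2, a log2 fold change of -0.66 ± 0.19 (SE), while its other probe set had 0.12. Sesn1, a sestrin that p53 induces, had 195, 177.2 and 156.8 against 121.2, 116.4, 106.7 and 119.2 (-0.54 ± 0.15, SE), and its other probe set had -0.22. All 12 genes stayed below the untreated range under quantile normalization and under scaling to one 75th percentile, and each had a limma adjusted p of 0.802.

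**Figure D3:**
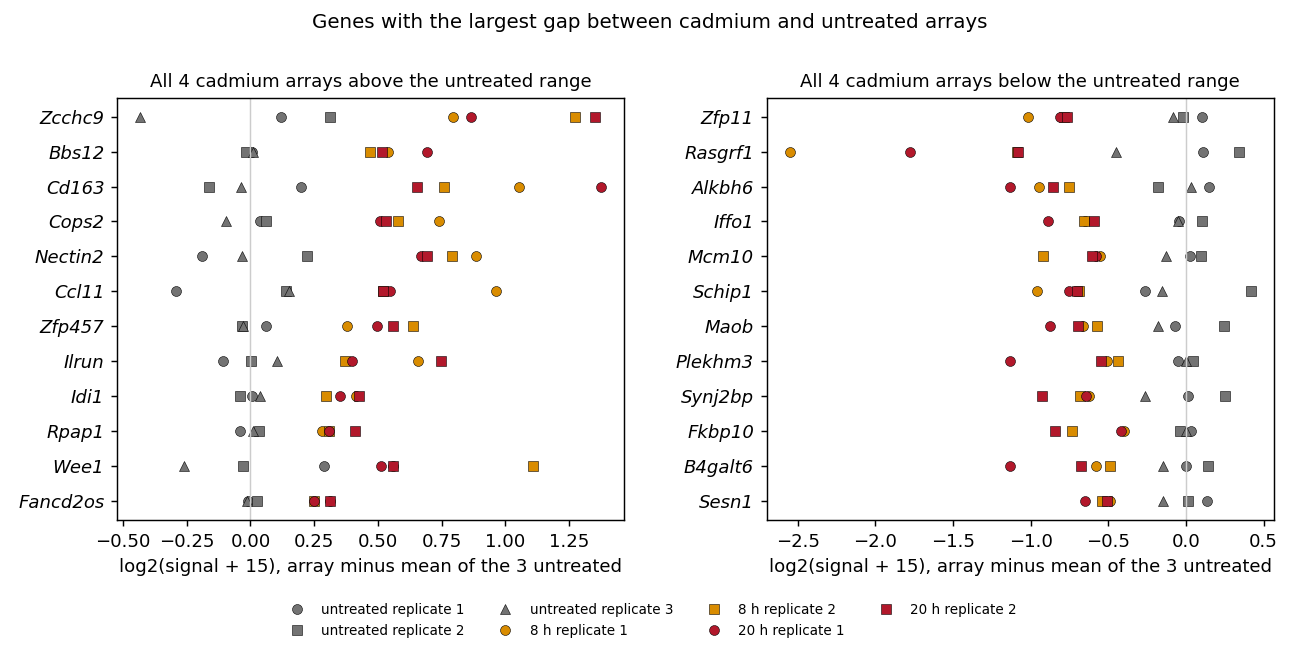
The 12 genes with the widest gap above (left) and below (right) the untreated range, one line per gene; the horizontal axis is log2(signal + 15) of each array minus the mean of the 3 untreated arrays, and symbols mark the 7 arrays. In each line the 4 cadmium arrays (8 h orange, 20 h red) do not overlap the untreated arrays (grey), and the gaps run from 0.22 to 0.48 on the left and from 0.34 to 0.68 on the right.

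Where a gene had more than 1 probe set of signal of at least 100, the others often shared the direction but seldom the separation. For genes above the range there were 128 such other probe sets of 91 genes. Of these 64.1% had a positive fold change, against 41.4% of all 5107 probe sets of genes with several, and 4.69% were themselves above the range, against 2.11%. For genes below the range there were 190 of 141 genes, of which 72.6% had a negative fold change, against 58.6%, and 4.21% were themselves below, against 3.88%. Their median log2 fold changes were 0.07 and -0.13. Probe sets of one gene can share transcript ends or differ in splice form.

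Mt1 and Mt2A encode metallothioneins, the small proteins that bind cadmium and zinc. Neither lay outside the untreated range, but both were above the untreated array of their own day on all 4 cadmium arrays, as 12.2% of all probe sets were. Mt2A had 4204.8, 4593.2 and 3717.1 on the untreated arrays and 4383.7, 4160.4, 5589.3 and 3949 on the cadmium arrays, a log2 fold change of 0.11 ± 0.14 (SE). Mt1, with 6 cores in its promoter, had 109.3, 110 and 54.9 against 108.4, 74.1, 128.8 and 81.1 (0.11 ± 0.26, SE). In both the groups overlapped, and the first 20 h array was the highest. Against the untreated array of its day, Mt2A was higher by 0.24 and 0.16 at 8 h and by 0.41 and 0.09 at 20 h on the log2 scale, and Mt1 by 0.82, 0.35, 0.21 and 0.46. Blocking on the day gave log2 fold changes of 0.26 ± 0.08 (SE; limma, adjusted p = 0.553) for Mt2A and 0.41 ± 0.22 (SE; limma, adjusted p = 0.676) for Mt1. Neither passed, and after quantile normalization without the block they were -0.04 for Mt2A and 0.27 for Mt1. Mtf1 had a fold change of 0.00 ± 0.10 (SE) and Slc30a1, the zinc exporter that Mtf1 induces, -0.41 ± 0.45 (SE). Of 15 measured genes of metallothioneins and metal transport, out of 18 listed, 0 were outside the range on either side; the median fold change was -0.02, and 0.07 with the day as a block.

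Stress and oxygen-responsive genes differed between the animals of each time. Hmox1, which encodes the haem-degrading enzyme heme oxygenase 1, had 358.5, 396 and 234.6 on the untreated arrays, 613.5 and 250.2 at 8 h, and 1604.7 and 217.2 at 20 h. At each time replicate 1 was above every untreated array and replicate 2 was within or below their range. Slc7a11, the cystine importer, had 194.8, 322.8 and 240.1 against 671.4, 190.5, 748.6 and 170.1. Hspa1a, the inducible heat shock protein 70, had 175.4, 160 and 201.4 against 580.2, 140.9, 284.1 and 148.6. Both had the same split between replicates. Egr1, an immediate early transcription factor, had 65.1, 67.1 and 106.3 against 208.1, 58.2, 783.9 and 92.7, and Vegfa, the vascular growth factor, 95.7, 47.2 and 47.2 against 111.4, 32.9, 578.8 and 35.5. Bnip3, a mitochondrial protein of the hypoxia response, had 209.9, 226 and 236.8 against 281, 166.9, 1400.3 and 133.4. For these 6 genes the replicate 1 animals were high and the replicate 2 animals were not, so the pooled fold changes, from 0.43 for Hspa1a to 1.06 for Egr1, had standard errors of 0.39 to 0.73. Blocking on the day, they ran from 0.38 for Hspa1a to 1.32 for Egr1.

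**Figure D4:**
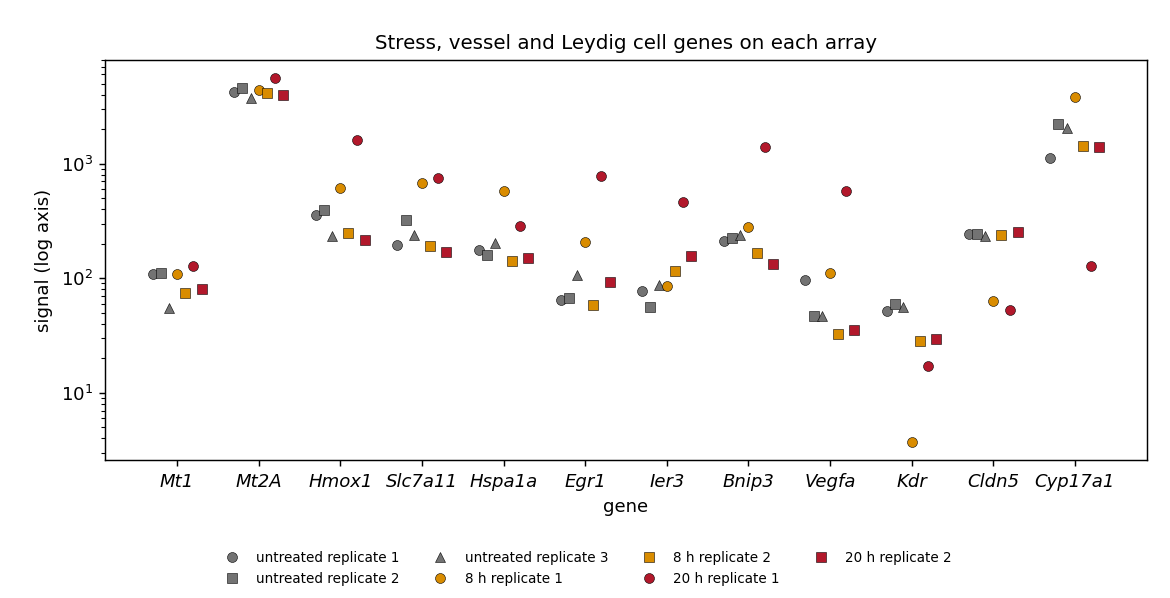
Signal of 12 genes (log vertical axis) on the 3 untreated arrays (grey), both 8 h arrays (orange) and both 20 h arrays (red), with replicate 1 as circles, replicate 2 as squares and replicate 3 as triangles. From Hmox1 to Vegfa, apart from Ier3, the cadmium circles lie above the untreated signals while the cadmium squares do not. For Slc7a11, Hspa1a, Bnip3 and Vegfa the cadmium squares lie below all untreated signals. Kdr alone of the 12 has all 4 cadmium arrays outside the untreated range on the same side.

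Of all 11552 genes, 255 (2.21%) lay above the untreated range on all 4 cadmium arrays and 508 (4.4%) below it. Over all lists, 37 measured members lay outside it, 16 above and 21 below, a count not tested against those shares. After quantile normalization, 11 and 6 of these members stayed outside. Those that did not were Ctss, Fabp5, Zpbp, Nectin3 and Psmc5 above, and Itgb2, Csf1r, Sox17, Synpo2, Pdgfra, Kitlg, Mmp2, Zmat3, Mcm5, Mcm2, Mvd, Ebp, Col3a1, Lamb2 and Col5a1 below. Of 32 measured immediate early genes, out of 40 listed, 2 were above the untreated range and 0 below, where 2.21% of 11552 genes were above and 4.4% below. Dusp1, the phosphatase that switches off MAP kinases, had 173.2, 125.9 and 70.9 on the untreated arrays against 183.7, 235, 259.3 and 176.8, a log2 fold change of 0.78 ± 0.25 (SE), and its other probe set was also above the range (0.33). Untreated replicate 1 came close to the first 8 h and the second 20 h array. Gadd45a, a growth arrest and DNA damage gene, had 142.2, 145.2 and 142.6 against 187.2, 161, 329 and 193 (0.50 ± 0.22, SE). Ier3 missed the rule by 1 array, with 77.4, 55.9 and 87.4 against 85, 114.5, 465.8 and 156.8. The list's median fold change was 0.13, and 0.26 once the day was a block. It became -0.06 without 20 h replicate 1 and 0.00 without untreated replicate 3.

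Gstp1, a glutathione transferase, was the only 1 of 27 measured Nrf2 and antioxidant genes above the range, with 673, 647.4 and 572.8 against 779.5, 722.6, 863.2 and 753.7 (log2 fold change 0.30 ± 0.11, SE). The median of that list was 0.07, and -0.02 after quantile normalization. Of 29 measured hypoxia and glycolysis genes 0 lay outside the range; their median was 0.11 and became -0.04 without 20 h replicate 1. Of 23 heat shock genes 0 were outside (median 0.05), and likewise 0 of 28 unfolded protein and integrated stress response genes (median 0.06). Of 20 measured cytokine, chemokine and NF-kB genes, out of 37 listed, 1 was above. That gene, Il33, an alarmin released by damaged cells, had 18.3, 26.5 and 23.8 against 60.4, 48.8, 307.3 and 28.2, a log2 fold change of 1.26 ± 0.56 (SE) that was 0.65 without the first 20 h array. Il33 met the filter on low values on 0 untreated and 3 cadmium arrays, so it was kept through the cadmium group alone. The median of the list was -0.14.

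Vessel genes were the list with the lowest median. All 15 measured endothelial markers, out of 27 listed, had a negative fold change, and the median log2 fold change was -0.53. Blocking on the day gave -0.75 and quantile normalization -0.33; over all genes it was -0.04. The summed signal of the list was 1340 to 1373 on untreated and 764 to 1082 on cadmium arrays, which do not overlap. In a whole tissue, fewer cells of a type and less RNA per cell cannot be told apart. Of the 15, 10 had a signal under 100, and of all 3094 genes under 100, 69.8% had a negative fold change, with a median of -0.15. The filter on low values was met on at least 2 arrays of each group by 11 of the 15, whose median was -0.50, and on under 2 cadmium arrays by 4, Kdr and Sox17 among them. Of the 15, 2 were below the range on all 4 arrays and 0 above, beside 4.4% and 2.21% of all genes, a count not tested against those shares. Kdr, the main receptor for Vegfa on vessels, had 51.8, 59.5 and 55.7 on the untreated arrays and 3.7, 28.5, 17 and 29.4 on the cadmium arrays (log2 fold change -1.11 ± 0.35, SE). Sox17, an endothelial transcription factor, had 43.1, 42.8 and 53 against 7.6, 40.9, 17.3 and 23 (-0.79 ± 0.35, SE). Cldn5, a claudin that seals the junctions of vessels, differed instead between the animals of each time: 241.2, 241.4 and 231.9 against 62.7, 236.1, 52.5 and 252.9. Both replicate 1 animals had low Cldn5 and the replicate 2 animals had untreated levels.

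Of 16 measured macrophage markers, out of 19 listed, 13 had a positive fold change, 2 were above the range and 1 below. Among all genes, 2.21% were above and 4.4% below. The median of the macrophage list was 0.16 and became -0.03 when day 3 arrays alone were used. Besides Cd163, Ctss, a lysosomal protease of antigen-presenting cells, had 189.4, 167.5 and 193.8 against 330.5, 205.3, 206.3 and 256.8. Csf1r, the receptor that keeps macrophages alive, was below: 127.5, 122.9 and 128.9 against 70.8, 102.1, 80 and 110 (log2 fold change -0.44 ± 0.19, SE). The summed signal of the list was 8297 to 9079 on untreated and 8944 to 10111 on cadmium arrays and overlapped. Among 9 measured neutrophil and myeloid leukocyte markers, out of 26 listed, 1 was below, Itgb2, the integrin chain of leukocytes, with 74.5, 95.1 and 122.2 against 45.9, 70.8, 57.6 and 62.5. That list summed to 810 to 927 on untreated and 769 to 1020 on cadmium arrays, and the red cell, platelet and plasma list, with 10 of 21 genes measured and 0 outside, to 2228 to 3180 and 2403 to 4077. Their part in the results was not tested.

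Of 26 measured extracellular matrix genes, out of 30 listed, 4 were below the range and 1 above, beside 4.4% and 2.21% of all genes, with a median of -0.12. Col5a1, a fibrillar collagen, had 66.7, 69.5 and 123.5 against 27.2, 33.4, 24 and 54.6 (log2 fold change -1.02 ± 0.29, SE). Col5a1 met the filter on low values on 3 untreated arrays and 1 cadmium array, so the untreated group alone was enough to keep it. Eln, which encodes elastin, had 69, 72.4 and 75.5 against 43.6, 48.3, 30.6 and 34.8 (-0.70 ± 0.22, SE), with all cadmium arrays well apart. Col3a1 (-0.64) and Lamb2 (-0.33), a laminin chain, were the others, and Col3a1 was 760.4 on untreated replicate 3 against 391.6 and 315.7 on the other untreated arrays. Nid2, a basement membrane nidogen, was above, with 623.9, 626.8 and 664.8 against 738, 740.4, 872.3 and 803.6 (0.30). Of 25 measured proteases, inhibitors and TGF-beta genes, Ctss was above and the gelatinase Mmp2 below (-0.31), while A2m, a broad protease inhibitor, had -0.04 and Tgfb3 -0.04, both inside the range.

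Of 32 measured cell cycle genes, out of 35 listed, 4 were below the range and 0 above, beside 4.4% and 2.21% of all genes, and the median was -0.02. Wee1, described above the range, is not in this list. Cdk1, the mitotic kinase, had 736.9, 796.9 and 797.2 against 572.9, 597.4, 734.9 and 601.5 (log2 fold change -0.31), with the first 20 h array nearly at the untreated level. Cdc25a, the phosphatase that activates cyclin-dependent kinases, had 287.3, 269.4 and 279.2 against 228.8, 240.4, 137.5 and 213.6 (-0.44 ± 0.19, SE). Mcm5 (-0.33) and Mcm2 (-0.26) belong to the replicative helicase. Mki67, Pcna and Ccnb1, markers of proliferation, were inside the range with -0.05, 0.16 and 0.29. Of 27 measured p53 and apoptosis genes, Ccng1, a cyclin that p53 induces, was above with 194.3, 184.8 and 189.7 against 264.5, 228.3, 249.6 and 273.4 (0.39). Bcl2l11, which encodes the death-promoting protein Bim, had 86.9, 91.9 and 83.1 against 56, 37.7, 45.5 and 48.8 (-0.73 ± 0.20, SE), and its other probe sets had 0.36 and -0.20. Zmat3 was also below (-0.42). The p53 targets Ccng1 and Sesn1 thus lay on opposite sides of the untreated range, with Sesn1 on the probe set named above for its gap. On the probe set that the list uses, Sesn1 was inside the range (-0.22).

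In the barrier and the tubule, 3 of 34 measured genes of tight, adherens and gap junctions and integrins were above the range and 0 below, beside 2.21% and 4.4% of all genes. These counts use 1 probe set per gene. On probe sets that the list did not use, its member Jam2 was below the range (log2 fold change -0.86, and -0.75 with the day as a block). Nectin2, also a member, was above it on such a probe set (0.76). Itgb1, the shared integrin beta chain, had 275.6, 380.8 and 416.6 against 459.4, 435, 526.7 and 468.4 (log2 fold change 0.40 ± 0.15, SE). Nectin3, the germ cell partner of Nectin2 in Sertoli-spermatid junctions, had 4772.4, 4676.1 and 4942.2 against 5540.5, 5701, 5071.2 and 5954.4 (0.21 ± 0.10, SE), and Pxn, the focal adhesion protein paxillin, had 0.17. Cldn11, the claudin of the Sertoli cell barrier, had 0.06 ± 0.14 (SE), Ocln -0.16 ± 0.21 and Cdh2 -0.46 ± 0.32, all inside. Their other probe sets had fold changes of -0.38 for Cldn11, -0.47 for Ocln and -0.14 for Cdh2. Of 24 Sertoli cell genes Fabp5 was above (0.23) and Kitlg, which encodes the ligand of Kit, below (-0.44). Of 12 spermatogonial markers Kit itself was below, with 91.4, 74.1 and 47.4 against 38.2, 33.4, 43.5 and 33 (-0.69 ± 0.25, SE).

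Most members of the germ cell lists stayed inside the range, as most genes did (2.21% of all genes were above and 4.4% below). Of 31 measured spermatid genes 29 had a positive fold change with a median of 0.22, but that median was 0.03 once the day was a block and 0.01 under quantile normalization. Zpbp, a protein of the sperm acrosome, was the 1 member above, with 3875.3, 3029.7 and 3721.8 against 4440.9, 4709.4, 4446.9 and 4896.1 (log2 fold change 0.39 ± 0.11, SE). Prm1 had 0.24 ± 0.20 (SE) and Tnp1 0.25 ± 0.18 (SE), or -0.08 and -0.02 when the day was a block. Of 18 spermatocyte genes Smc1b, the meiotic cohesin subunit, was above with 1654.7, 1827.2 and 1193.6 against 2083.5, 2432.6, 1945.6 and 2135.8 (0.48 ± 0.15, SE). The median of that list was 0.08.

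Leydig cell genes varied between animals more than between groups. Cyp17a1, the enzyme that commits steroids to androgens, had 1116, 2239.5 and 2046.2 on the untreated arrays, 3852.3 and 1415.6 at 8 h, and 127.4 and 1403.4 at 20 h. The first 8 h animal was the highest of the 7 and the first 20 h animal the lowest, a span far wider than any difference between the groups. Star, which brings cholesterol into mitochondria, had a fold change of -0.24 ± 0.34 (SE) and Insl3, a Leydig cell hormone, 0.33 ± 0.22 (SE). Of 22 measured Leydig cell genes 1 was below, Pdgfra, a growth factor receptor, with 292, 283.9 and 370.1 against 245.7, 250.1, 108 and 276.1 (-0.56 ± 0.27, SE). In cholesterol synthesis and uptake, with 25 measured genes, Idi1 was above and Ebp (-0.30) and Mvd (-0.21) below, so enzymes of one pathway lay on both sides.

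The remaining lists had few members outside. Psmc5, an ATPase of the proteasome, was the 1 of 31 proteasome and ubiquitin genes above (0.15), and the list's median was 0.10, -0.01 with the day as a block. Synpo2, of smooth muscle, was the 1 of 15 peritubular myoid and smooth muscle genes below (-0.30). Of 24 DNA repair and histone genes and of 12 reference genes 0 were outside, with medians of 0.03 and 0.04. Across the 26 lists, 0 members passed limma's adjusted threshold, and 18 list medians changed sign in at least 1 of 18 alternative settings. Those of the endothelial, extracellular matrix, cytokine, spermatogonial, spermatocyte, spermatid, unfolded protein response and reference gene lists did not.

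**Figure D5:**
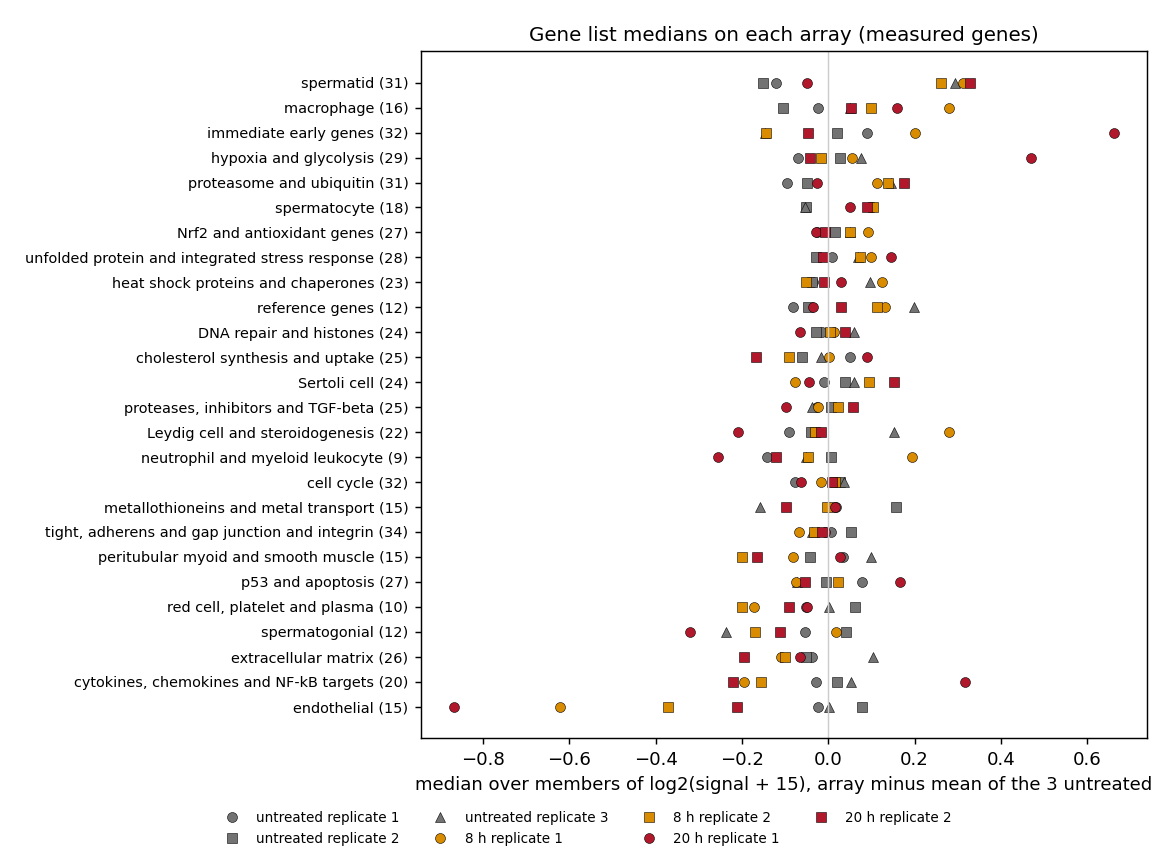
Median over the measured members of each gene list (number in brackets) of log2(signal + 15), array minus the mean of the 3 untreated arrays, for each of the 7 arrays. Of the 26 lists, 2 have all 4 cadmium arrays below all 3 untreated arrays, endothelial and extracellular matrix, and 1 has them above, macrophage. The nearest cadmium and untreated arrays are at -0.213 and -0.024 for the endothelial list. They almost touch for the matrix list, at -0.065 and -0.052, and for the macrophage list, at 0.052 and 0.050. The immediate early and hypoxia lists stand out for 20 h replicate 1, at 0.66 for the immediate early genes.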

How the data were processed

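Total RNA of 7 rat testis samples was hybridized to Affymetrix Rat230_2 arrays. The deposited values are signal intensities per probe set on a linear scale, which the authors produced in MAS 5.0 and analysed in GeneSpring 7.2, per the design text given with the labels. The instrument files give settings of other kinds per the file headers and were read for hybridization day and staining: untreated replicate 2 was stained at 25 °C for 600 s, the other arrays at 35 °C for 300 s, and its file names mouse as sample type but the rat array. Depth is not a count on arrays; their number limits the precision.

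Of 31042 probe sets that are not controls, 20826 name 1 gene. Values were used as log2(signal + 15), 15 being the 20th percentile, for the 20857 probe sets (11552 genes) that exceeded the 40th percentile of an array on 2 or more arrays. The pooled comparison was fitted in limma 3.58.1 (R 4.3.3), using eBayes with a trend on intensity and Benjamini-Hochberg adjustment over all 20857 and a threshold of 0.05 (5 residual degrees of freedom, 3 with the day as a block). The fitting code was tested on simulated data. Named by rule were the 12 genes with the largest gap each way (1 gene, signal of at least 100), genes that passed, the 2 largest fold changes per list among members outside the untreated range, and a fixed set; further genes were picked after their values were seen. Lists use the probe set with the highest mean per gene. The members, the 26 lists and the tests were chosen with earlier results of these data known. Alternatives changed the pseudocount, filter, scaling, design, trend, block and arrays. Actb had no probe set naming it alone. Promoters and their builds are from RefSeq (GRCr8); probe sets have no coordinates here.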

Additional observations from a re-analysis of the deposited data

Results flagged for a closer look

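Among the 4 cadmium arrays, 1 array lay apart from the other 3 in 11 of 113 values examined (9.73%). The rate of about 1 in 20 holds for independent values. These share arrays and genes, and many were chosen by their values, so no excess can be read from the share. The figure given is that array's gap to its nearest neighbour as a share of the range of the 4 arrays; values above Dixon's 95% limit for 4 values are given. The first 8 h array was high for Ccl11 (0.939). The second 8 h array was high for Wee1 (0.921) and low for Psmc5 (0.862) and Mcm10 (0.861). The first 20 h array was low for Tnp1 (0.886), Insl3 (0.893), Prm1 (0.883), Plekhm3 (0.838) and Pdgfra (0.872), and high for the median of the cytokine, chemokine and NF-kB list (0.878). That array was the only cadmium array hybridized on day 1. Untreated arrays of days 1 and 3 also differed for Tnp1 (14539.1 and 20923.3), Prm1 (20530.8 and 28324.4) and Insl3 (1356.9 and 1827.8). Plekhm3 and Pdgfra were low against the day 1 untreated array, at 59.8 against 143.4 and 108 against 292. The part of the day was not tested. The second 20 h array was low for the median of the metallothionein and metal transport list (0.833). For the Nrf2 and antioxidant list both 8 h arrays had a median above the untreated mean and both 20 h arrays below it, a difference of 20 h minus 8 h of -0.0876 on the log2 scale; this difference was not tested.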

How the results depend on the processing

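The count past the adjusted threshold (1) was 0 with a pseudocount of 1, no filter, a filter at the 60th percentile on 3 arrays, 3 groups, no trend, the day as a block or the replicate block, 11 with the 4 day 3 arrays alone, and 0 to 2 when each array was left out. At an unadjusted p under 0.05, the higher probe sets (332) were 789 with the day as a block, 1222 with the replicate block, 1285 with day 3 alone and 180 to 1130 without single arrays; the lower ones (840) were 1420 without filter, 364 with the stricter filter, 399 after quantile normalization, 536 at one 75th percentile, 2459 with the replicate block and 378 to 2249. Probe sets above the untreated range (379) were 571 and 570 under the same scalings, and those below it (1023) 563 after quantile normalization, 1675 without filter and 447 with the stricter one. Leaving out an array, which by construction eases the rule, gave 481 to 1706 above and 1326 to 3922 below, with the highest values without untreated replicate 3. Probe sets higher than the same-day untreated array (2541) were 2507 to 8592 and highest without untreated replicate 3, whose day then gives no difference; lower ones (3691) 5614 without filter, 2059 with the stricter one and 3622 to 11799. The day-blocked count (0) was 0 to 25: 25 without untreated replicate 3, 6 without 20 h replicate 1, 5 without untreated replicate 1 and 1 without 8 h replicate 1. For genes outside the untreated range the rule fixes the sign when arrays, filter, pseudocount or block change, so those settings say nothing of its stability. Of 26 other named values, 18 changed sign in at least 1 of 18 settings. Between arrays of one replicate number, correlations of deviations were -0.02 (untreated with 8 h), 0.08 (untreated with 20 h) and 0.17 (8 h with 20 h). Such values cannot tell whether a subset of genes is shared, and Hmox1 and others split by replicate number at both times. Whether these arrays share more than a number was not tested. Signal near background limits the dim genes.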

Other observations

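Of 1859 genes with at least 2 probe sets of signal of at least 100, 3 had at least 2 above the untreated range (Matr3, Pla2g6 and Ssr1) and 4 had at least 2 below it (Brinp2, Camsap2, Cav1 and Chpf2); these were picked after their values were seen. Cav1, which encodes the coat protein of the caveolae of endothelial and muscle cells, had 182.6, 191.9 and 193.7 on the untreated arrays and 157.5, 134.9, 104.9 and 124.1 on the cadmium arrays on one probe set, a log2 fold change of -0.50 ± 0.16 (SE). Its other probe sets had -0.39 and -0.37. Ssr1, a subunit of the translocon-associated complex of the endoplasmic reticulum, had 1001.8, 1074.1 and 878.3 against 1246.1, 1342.3, 1400 and 1305.7 on one probe set (0.42 ± 0.11, SE) and 0.17 on the other. Matr3, a protein of the nuclear matrix, had 82.6, 67.4 and 59.5 against 109.9, 90.8, 175.3 and 105.4 on one (0.65 ± 0.23, SE) and 0.13 on the other. Camsap2 had a further probe set with a fold change of 0.19, opposite to -0.33 and -0.37 on the others.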
